A study of Rattus norvegicus with 16 samples.

Results

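Obestatin and ghrelin are cut from the same precursor, preproghrelin, which the gene Ghrl encodes. The data below describe 5 genes of this system in the gut of suckling rats: Ghrl itself, Mboat4, which encodes the enzyme that acylates ghrelin, and Ghsr, Gpr39 and Glp1r, which encode receptors. The genes were chosen by their symbols in the annotation of the array, and all their probes were taken. They are 5 of the 26115 symbols of the array, and were covered by 6 of its 30367 probes and 19 of the 58717 spots that were not controls.

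The arrays came from suckling Wistar Han rats, Wistar in the labels, in 4 groups of 4 arrays, the stomach and the middle intestine of rats named C and of rats named OH. Pups of the OH groups received obestatin by gavage at 250 nmol per kg BW in each of 2 daily doses, beginning on day 14 of life, and pups of the C groups received saline in the same way. All were breast-fed and housed with their mothers, and were killed on day 21 after 7 days of treatment, shortly after the last dose. Each array held the RNA of one tissue of a rat in Cy5 and a common pool of RNA from all animals in Cy3, so that every value is a log2 ratio of tissue to pool. The pups of each treatment came from 4 litters, and the labels do not say which litter or rat an array came from, so that the tests measure the spread between arrays.

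In the stomach, ghrelin is made by endocrine cells of the oxyntic mucosa, and smaller numbers of such cells lie along the intestine. The product of Mboat4, ghrelin O-acyltransferase, attaches a fatty acid to ghrelin, and only the acylated form activates the growth hormone secretagogue receptor encoded by Ghsr. Obestatin comes from the part of the precursor behind ghrelin and ends in an amide. Gpr39, a receptor that responds to zinc, and the glucagon-like peptide 1 receptor Glp1r have both been proposed as receptors of obestatin, and both proposals are debated.

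The sequences of 4 probes are shown because they decide which transcript each result refers to. In the probe of Ghrl the capitals mark bases 6 to 60, which encode the beginning of obestatin in 18 whole codons. This probe therefore reads the messenger RNA over the obestatin segment, and it reads the transcript of ghrelin and obestatin together because both lie on it. The probe of Glp1r shown is the brighter of its 2 probes in Cy5. All sequences are given 5′ to 3′ as in the array annotation.
Ghrl: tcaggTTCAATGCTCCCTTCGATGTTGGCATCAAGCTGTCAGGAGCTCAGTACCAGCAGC
Mboat4: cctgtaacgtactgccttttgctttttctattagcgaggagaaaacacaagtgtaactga
Gpr39: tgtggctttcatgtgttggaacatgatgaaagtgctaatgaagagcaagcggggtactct
Glp1r: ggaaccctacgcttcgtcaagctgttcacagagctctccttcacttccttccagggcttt

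In the rn4 build of the rat genome, the probe of Ghrl lies on the minus strand at chr4:149623700-149625652. That span of 1953 bases is longer than the probe, which therefore crosses at least one exon junction. The probe of Mboat4 lies at chr16:61792310-61792369 on the minus strand, that of Ghsr at chr2:113272703-113272762 and that of Gpr39 at chr13:38182863-38182922, both on the plus strand. Of the probes of Glp1r on the plus strand, one is split over chr20:9258276-9259805 and the other is contiguous at chr20:9263387-9263446. The Ghrl probe was printed on 10 spots, that of Gpr39 on 1, and each other probe on 2.

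Each group lay on one slide of its own, and the OH slides were scanned on a different day from the C slides, so that neither treatment nor tissue can be told apart from the slide, nor treatment from the scan day. The median raw signal of the Cy3 pool ranged from 188 to 195 scanner units on the C arrays and from 341 to 399 on the OH arrays. The tissues matched their labels: all 9 markers of oxyntic and surface stomach mucosa were higher in stomach, and 8 of 9 enterocyte genes were lower there, in both treatments. The stomach arrays differed in muscle content within groups. The mean log2 ratio of 8 striated muscle genes was 3.68, -1.05, 3.30 and 3.98 on the 4 C stomach arrays and between -0.49 and 1.11 in OH stomach. That of 6 smooth muscle genes lay between -2.47 and -1.39 on the C stomach arrays, while the OH stomach arrays reached from -2.48 to 0.96. In whole tissue, fewer cells of a type and less RNA per cell cannot be told apart.

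Ghrl was far higher in stomach than in middle intestine and did not differ between OH and C beyond the spread between arrays in either tissue. The log2 ratios were 3.12, 3.73, 2.91 and 2.97 in C stomach and 2.55, 3.88, 3.41 and 3.53 in OH stomach. The OH stomach arrays thus held both the lowest and the highest value of the 8, and the groups overlapped. The C arrays averaged 3.18 ± 0.38 (SD, n = 4) and the OH arrays 3.34 ± 0.56 (SD, n = 4). The difference of 0.16 on the log2 scale was a fold of 1.12, with a 95% interval of the fold from 0.63 to 2.00 (limma, adjusted p = 0.91), and 0 of the 21170 probes tested passed in this comparison (0% of all; 2245 had an unadjusted p under 0.05). A change of Ghrl of up to the ends of that interval could not be told from none with 4 arrays a group. With ratios quantile normalized between arrays the difference was 0.82 (limma, adjusted p = 0.44). Without C stomach replicate 2, which had the lowest striated muscle value, 311 probes passed, and the difference of Ghrl was 0.34 with an adjusted p of 0.77.

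In middle intestine the Ghrl ratios were -1.40, -1.76, -0.73 and -1.17 in C and 0.25, -1.03, -1.89 and -1.19 in OH. One OH array stood above all others, while the remaining 3 lay within or just below the range of C. The C arrays averaged -1.26 ± 0.43 (SD, n = 4) and the OH arrays -0.97 ± 0.89 (SD, n = 4), a difference of 0.30 with a 95% interval from -0.54 to 1.14 (limma, adjusted p = 0.89). Without that first OH array the difference was -0.11 (limma, adjusted p = 0.98), so that its sign rested on 1 array. The stomach mucosa markers on that array averaged -3.79, within the range of -3.95 to -3.43 of the OH intestine arrays. The C intestine arrays, at -4.26 to -3.88, lay below that array. The part of tissue composition was not tested. The response to OH differed between the tissues by -0.13 (limma, adjusted p = 0.98), and no probe passed in that test (0%; 1238 had an unadjusted p under 0.05).

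**Figure D1:**
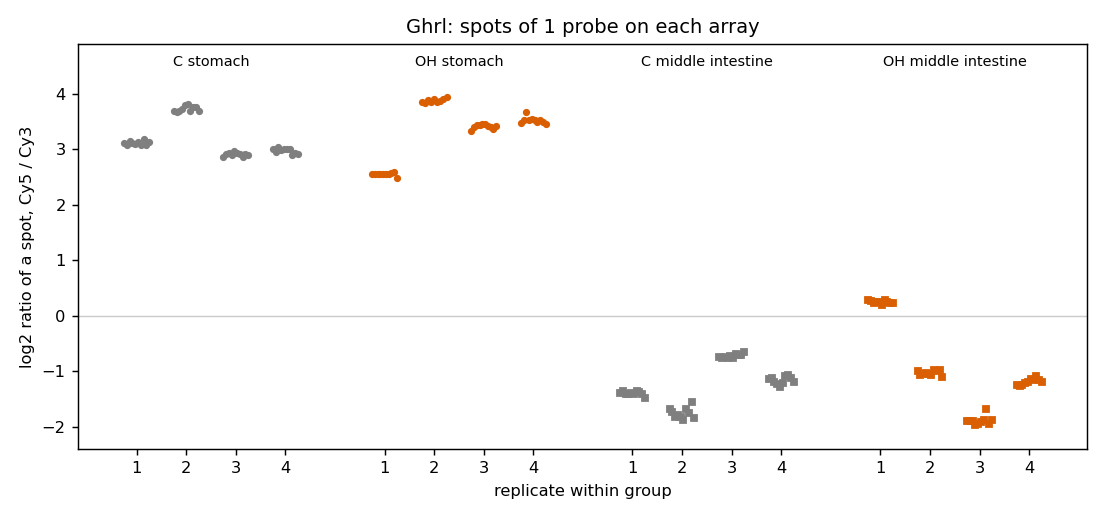
The vertical axis gives the log2 ratio, Cy5 over Cy3, of each spot of the Ghrl probe that was not marked as an outlier, and the horizontal axis gives the array within its group, C in grey and OH in orange. The spots of an array lie close together, with an SD between 0.03 and 0.10, while arrays of a group differ by 0.82 to 2.14.

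The spread of Ghrl was a spread between arrays and not between spots. The spots of an array, 10 or, on OH stomach replicate 2, 9, had an SD between 0.03 and 0.10, while the arrays of one group spanned 0.82 (C) and 1.33 (OH) in stomach, and 1.03 (C) and 2.14 (OH) in the intestine. Every spot used was well above background in Cy5 in both tissues and none was saturated, so that the low intestinal values are measured levels. The plot of single spots shows the tight cluster of each array.

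Between tissues the Ghrl arrays did not overlap. In C, stomach exceeded middle intestine by 4.45 on the log2 scale, a fold of 21.8 with a 95% interval from 12.2 to 39.0 (limma, adjusted p = 5.1e-07; exact permutation test, two-sided, p = 0.029, the smallest that 4 against 4 arrays can give). In OH the difference was 4.31, a fold of 19.9 (limma, adjusted p = 7.6e-07), and with Cy5 alone, quantile normalized, it was 5.28. Tissue differences were common, since 45% of all probes passed between the tissues of C and 38.2% between those of OH, and 22.7% and 19.2% passed as higher in stomach. The Ghrl difference was among the larger ones: 1.51% of the probes tested had a larger absolute difference in C and 1.50% in OH.

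Mboat4, the acylating enzyme, was likewise higher in stomach and showed no difference between OH and C that passed the test. Its log2 ratios were 2.08, 2.43, 1.75 and 1.47 in C stomach and 1.03, 2.44, 2.27 and 1.51 in OH stomach. As for Ghrl, OH stomach held the lowest and the highest value, on the same arrays, replicates 1 and 2. The difference was -0.12 with a 95% interval from -0.82 to 0.59 (limma, adjusted p = 0.93).

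In middle intestine the Mboat4 ratios were -1.02, -0.65, -1.17 and -0.62 in C and -0.50, -1.70, -0.74 and -1.44 in OH. Both groups overlapped, and the difference of -0.23 had a 95% interval from -0.94 to 0.47 (limma, adjusted p = 0.90). Here the signal was close to background, with 6 of 8 spots well above it in C and 7 of 8 in OH, against all 8 spots in each stomach group. The first OH array, with the highest Ghrl ratio, also had the highest Mboat4 ratio of its group.

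Stomach exceeded middle intestine in Mboat4 by 2.80 in C, a fold of 6.95 with a 95% interval from 4.26 to 11.3 (limma, adjusted p = 9.9e-06), and by 2.91 in OH, a fold of 7.53 (limma, adjusted p = 7.4e-06). The arrays did not overlap in either treatment (exact permutation test, two-sided, p = 0.029). With normexp background and loess the differences were smaller, 1.59 in C and 1.80 in OH, and passed. The responses of Mboat4 to OH differed by 0.11 between tissues (limma, adjusted p = 0.98).

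The order of the stomach arrays can be set beside the markers of the mucosa. OH stomach replicate 1, lowest of the 8 in Ghrl and in Mboat4, had the lowest mean of the oxyntic and surface mucosa genes, 2.19 against 2.29 to 3.21 on the others, and the highest mean of smooth muscle genes, 0.96. C stomach replicate 2, highest of C in both genes, had 3.00 for the mucosa genes and -2.47 for smooth muscle. OH stomach replicate 4 had 2.29 for the mucosa genes and 0.13 for smooth muscle, with a Ghrl ratio of 3.53. The part of tissue composition in the values of Ghrl and Mboat4 was not tested.

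On 15 of the 16 arrays the Cy5 signal of Ghsr, the receptor of acylated ghrelin, was not well above background. The exception was C stomach replicate 3, with 1 of its 2 spots. The ratios scattered without order. In stomach they lay between -0.53 and 0.57 for C and between -0.89 and 0.01 for OH. In the intestine the ranges were -0.73 to 1.08 for C and -0.77 to 0.10 for OH. The probe was therefore left out of the fit, and no fold is given between its groups. The result says that the transcript was not measurable in whole tissue by this probe, which does not bear on its presence in rare cells.

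Gpr39, the zinc-responsive receptor proposed for obestatin, was measured on all 16 arrays by a single spot. Its log2 ratios were 1.58, 1.55, 1.57 and 1.48 in C stomach, the tightest group of any member, and 1.12, 1.73, 1.72 and 1.43 in OH stomach. The C arrays lay inside the range of OH. The difference was -0.04 with a 95% interval from -0.39 to 0.30 (limma, adjusted p = 0.95).

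The Gpr39 ratios of middle intestine were 0.21, 0.67, 0.19 and 0.61 in C and 0.33, 0.83, 0.79 and 0.65 in OH. OH was higher by 0.23, a fold of 1.17, with a 95% interval of the fold from 0.92 to 1.49 (limma, adjusted p = 0.69), and the groups overlapped. The responses in both tissues differed by -0.27 (limma, adjusted p = 0.90).

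Gpr39 had the smallest difference between tissues of the members tested. Stomach exceeded middle intestine by 1.12 in C, a fold of 2.18 (limma, adjusted p = 5.9e-05), and by 0.85 in OH, a fold of 1.80 (limma, adjusted p = 7.3e-04). The arrays of the tissues did not overlap in either treatment. In C, 17.4% of the probes tested had a larger absolute difference than Gpr39, against 4.64% for Glp1r and 4.58% for Mboat4.

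Glp1r, the second proposed receptor, was measured in both tissues by its split probe. The ratios were 2.62, 3.04, 2.66 and 2.72 in C stomach and 2.52, 2.49, 3.04 and 3.02 in OH stomach. The means were 2.76 ± 0.19 (SD, n = 4) and 2.77 ± 0.30 (SD, n = 4), a difference of 0.01 with a 95% interval from -0.35 to 0.36 (limma, adjusted p = 0.99). The 95% interval of the fold ran from 0.79 to 1.29. With ratios quantile normalized between arrays the difference was 0.56 (limma, adjusted p = 0.34), outside that interval.

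In middle intestine the split probe of Glp1r gave -0.13, 0.17, 0.07 and -0.18 in C and 0.13, 0.50, -0.03 and -0.05 in OH, with overlap. As for Mboat4, the signal there was close to background, with 7 of 8 spots well above it in each group. The difference was 0.16 with a 95% interval from -0.20 to 0.51 (limma, adjusted p = 0.84), and the responses differed between tissues by -0.15 (limma, adjusted p = 0.95). Stomach exceeded middle intestine by 2.78 in C, a fold of 6.87 with a 95% interval from 5.37 to 8.79 (limma, adjusted p = 8.4e-09), and by 2.63 in OH, a fold of 6.20 (limma, adjusted p = 1.6e-08). With normexp background and loess these were 1.45 and 1.73, and with both probes averaged 3.68 and 3.79, and all passed.

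The contiguous probe of Glp1r gave the same direction between the tissues, but not the same size. Its stomach ratios were 4.44, 4.16, 4.08 and 3.66 in C and 3.40, 3.44, 3.92 and 3.93 in OH, while in middle intestine no spot was well above background on any of the 8 arrays. With dim arrays set at their lowest signal called well above background, stomach was 16.9-fold higher in C and 21.8-fold higher in OH. These folds are not strict lower limits. The dim C arrays were set at a mean log2 Cy5 signal of 3.00. On C middle intestine replicate 3, Mrap2 was not well above background at 4.03 before scaling. The probe was kept in the fit only through its stomach signal, so that no p is given for this step. Both probes thus placed Glp1r higher in stomach. The folds of the contiguous probe, from Cy5 signals, lay above those of the split probe, 6.87 in C and 6.20 in OH, from ratios. Which probe gives the better size was not tested.

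The probes of Glp1r differed in the comparison of OH with C. In stomach the contiguous probe gave -0.41 with a 95% interval from -0.78 to -0.04 (limma, unadjusted p = 0.031, adjusted p = 0.44), against 0.01 for the split probe. Its Cy5 signal alone was higher in OH by 0.27 (limma, adjusted p = 0.59) and its Cy3 pool signal was higher by 0.69 (limma, adjusted p = 0.018). In middle intestine neither group of this probe was above background in Cy5. Its ratio was lower in OH without overlap, by -0.79 (limma, adjusted p = 0.073, and exact permutation test, two-sided, p = 0.029). These p values compare signals at background, and no fold is given.

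**Figure D2:**
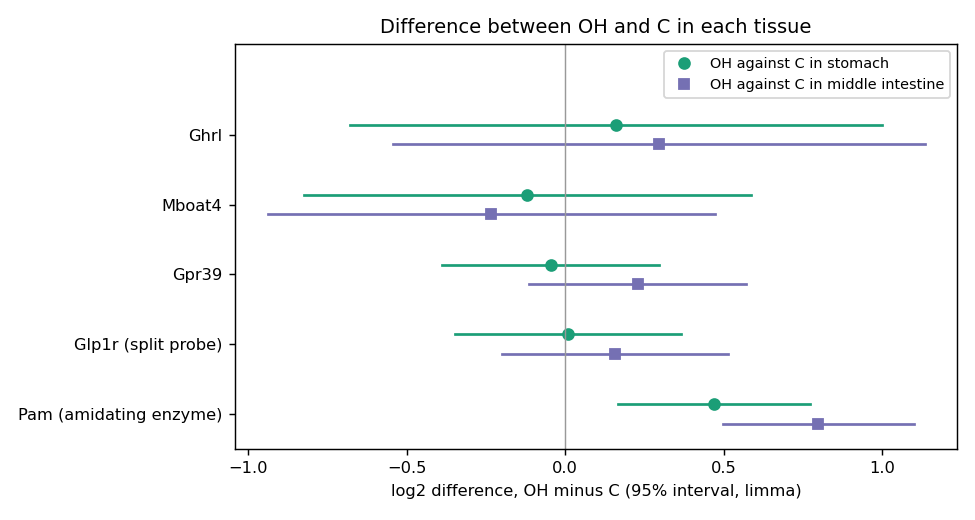
The horizontal axis gives the log2 difference of OH minus C with its 95% interval from limma, circles for stomach and squares for middle intestine. The intervals of Ghrl, Mboat4, Gpr39 and Glp1r (split probe) include 0 in both tissues, and those of Pam lie above 0, at 0.47 in stomach and 0.80 in middle intestine.

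None of the 4 members tested passed between OH and C, where 0% of all probes passed in stomach and 0.368% in middle intestine. By the exact permutation test the p of their differences lay between 0.20 and 1 over both tissues, with the split probe taken for Glp1r. All 4 passed between the tissues in both treatments, where 45% of all probes passed in C and 38.2% in OH. The plot of differences shows that the intervals of Ghrl and Mboat4 were wider than those of Gpr39 and Glp1r.

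Since every ratio contains the Cy3 pool, both channels were also taken apart after scaling the intensities of all arrays alike. Of all probes, 41.1% differed in Cy3 between the OH and C arrays of stomach and 58.6% between those of middle intestine, although the pool was the same RNA by the labels. For Ghrl in stomach the Cy5 difference was 0.25 (limma, adjusted p = 0.84) and the Cy3 difference 0.09 (limma, adjusted p = 0.59). In middle intestine Cy5 was -0.10 (limma, adjusted p = 0.98) and Cy3 was -0.37 (limma, adjusted p = 0.022), so that the positive difference of the ratio, 0.30, came with no higher tissue signal.

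The split probe of Glp1r had the same order in middle intestine, with -0.23 in Cy5 (limma, adjusted p = 0.72) and -0.36 in Cy3 (limma, adjusted p = 0.0039). Mboat4 and Gpr39 differed by at most 0.18 in Cy3 between OH and C, with adjusted p from 0.14 to 0.80 in limma. Between the C tissues the Cy5 differences of the members were 4.78 for Ghrl, 3.12 for Mboat4, 0.97 for Gpr39 and 2.50 for Glp1r. The Cy3 pool also differed there, by 0.35 for Ghrl (limma, adjusted p = 0.048), 0.34 for Mboat4 (limma, adjusted p = 0.011) and -0.27 for Glp1r (limma, adjusted p = 0.042), while Gpr39 had -0.14 (limma, adjusted p = 0.31). Between the OH tissues the Cy3 difference was 0.82 for Ghrl (limma, adjusted p = 0.0013), 0.45 for Mboat4 (limma, adjusted p = 0.0075) and 0.32 for Glp1r (limma, adjusted p = 0.038), each smaller than the Cy5 difference of the gene, 5.14, 3.36 and 2.96.

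**Figure D3:**
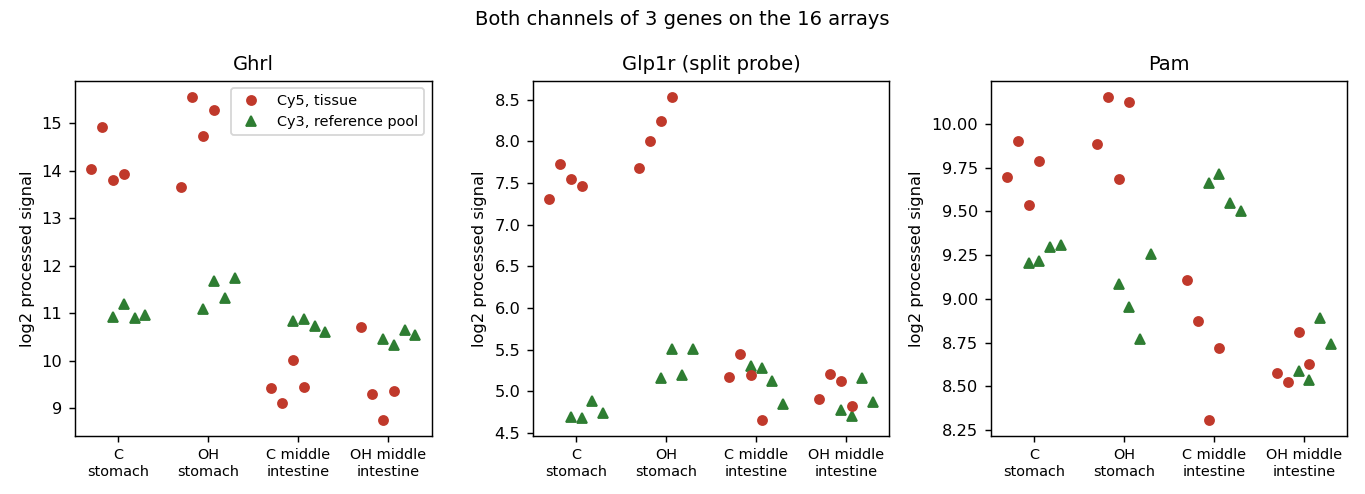
The vertical axis gives the log2 processed signal of Ghrl, the split probe of Glp1r and Pam on the 16 arrays, with circles for the tissue in Cy5 and triangles for the reference pool in Cy3. For Pam the Cy3 signal of the middle intestine arrays is lower in OH, at 8.53 to 8.89, than in C, at 9.50 to 9.71, while the Cy5 values of these groups overlap.

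Genes that process the precursor or act with its products were read as a list of 12, of which 10 had a probe above background. In stomach none of the 10 passed between OH and C, with a median difference of 0.10 against 0.01 over all probes. The largest differences were those of Bche, a plasma enzyme that removes the acyl group of ghrelin, at 1.23 (limma, adjusted p = 0.37), and of Cpe, which trims the ends of cut peptides, at 1.06 (limma, adjusted p = 0.47). Of the other partners, Leap2, which encodes a peptide that blocks the ghrelin receptor, was above background on 2 of 16 arrays, and Mrap2, an accessory protein of that receptor, on 3 of 16.

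In middle intestine 1 of the 10 passed. Pam encodes the enzyme that forms the amide at the end of peptides such as obestatin, and its probe lies at chr9:96977460-96977519. Its log2 ratios were -0.56, -0.84, -1.24 and -0.78 in C and -0.02, -0.01, -0.08 and -0.11 in OH, without overlap. The difference was 0.80, a fold of 1.74 (limma, adjusted p = 0.032; exact permutation test, two-sided, p = 0.029). In stomach the arrays of Pam did not overlap either, but the difference of 0.47 did not pass (limma, adjusted p = 0.31).

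The difference of Pam stood in the Cy3 channel and not in Cy5. Cy5 was lower in OH by -0.25 (limma, adjusted p = 0.49), and the Cy3 signal of the pool was lower by -1.02 (limma, adjusted p = 1.3e-11). The same held in stomach, with -0.14 in Cy5 (limma, adjusted p = 0.65) and -0.61 in Cy3 (limma, adjusted p = 1.2e-08). The call in middle intestine was lost without any one of the 4 OH arrays of that tissue, without C middle intestine replicate 2, 3 or 4, and without C stomach replicate 1 or 4, at adjusted p values from 0.050 to 0.094 in limma. It was also lost when only the 8 intestinal arrays were fitted (limma, adjusted p = 0.17).

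Between the C tissues 7 of these 10 genes passed, 3 higher and 4 lower in stomach, where 45% of all probes passed. The precursor protease Furin was higher by 1.65 (limma, adjusted p = 0.0048). Pcsk2, also a precursor protease, is counted among those higher. It was above background on 1 of 4 C middle intestine arrays and was kept only through its stomach signal, so that no fold or p is given. Bche was lower by -2.69 (limma, adjusted p = 1.7e-04), and Gcg, which encodes the precursor of glucagon-like peptide 1, was lower by -1.77 (limma, adjusted p = 0.011). Glp1r and the gene of its ligand thus had opposite tissue differences.

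Receptors known from ghrelin cells, together with the G protein subunit Gnat3, formed a list of 13 genes, with 9 above background. None passed between OH and C in either tissue. The largest differences were those of Ffar4, a fatty acid receptor, at -1.02 in stomach (limma, adjusted p = 0.48) and of the insulin receptor Insr at 0.94 in middle intestine (limma, adjusted p = 0.27). Between the C tissues 4 of the 9 were higher in stomach and 1 lower, against 22.7% and 22.3% of all probes. Sstr2, a somatostatin receptor, was higher by 2.08 (limma, adjusted p = 4.3e-04), the calcium receptor Casr by 1.45 (limma, adjusted p = 8.3e-06) and Gipr, the receptor of another gut hormone, by 0.92 (limma, adjusted p = 0.0011), while the fatty acid receptor Ffar2 was lower by -0.86 (limma, adjusted p = 0.0059).

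Of 17 genes of endocrine cells, 15 were above background and none passed between OH and C. Ttr, a transport protein found in endocrine cells, had the largest difference in both tissues, at 1.00 in stomach (limma, adjusted p = 0.27) and 0.53 in middle intestine (limma, adjusted p = 0.54). Between the C tissues 6 of the 15 were higher in stomach and 1 lower, a share of calls near the 45% of all probes. Hdc, which makes histamine in the enterochromaffin-like cells of the stomach, was higher by 4.35 (limma, adjusted p = 1.2e-07), and Isl1, a transcription factor of endocrine cells, by 3.70 (limma, adjusted p = 7.2e-08), though above background on 3 of 4 C middle intestine arrays. The amine transporter Slc18a2 followed at 2.82 (limma, adjusted p = 4.8e-06) and the granule protein Chga at 1.68 (limma, adjusted p = 2.6e-05).

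All 14 genes of receptor signalling were above background and none passed between OH and C. The largest differences were those of Plcb1, a phospholipase, at 1.03 in stomach (limma, adjusted p = 0.31) and of the kinase Src at 0.51 in middle intestine (limma, adjusted p = 0.11). Between the C tissues 3 of the 14 were higher in stomach and 1 lower, where 45% of all probes passed. The phospholipase Plcb3 was lower by -3.03 (limma, adjusted p = 2.6e-08) and the calcium channel Itpr3 higher by 1.43 (limma, adjusted p = 1.1e-05).

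**Figure D4:**
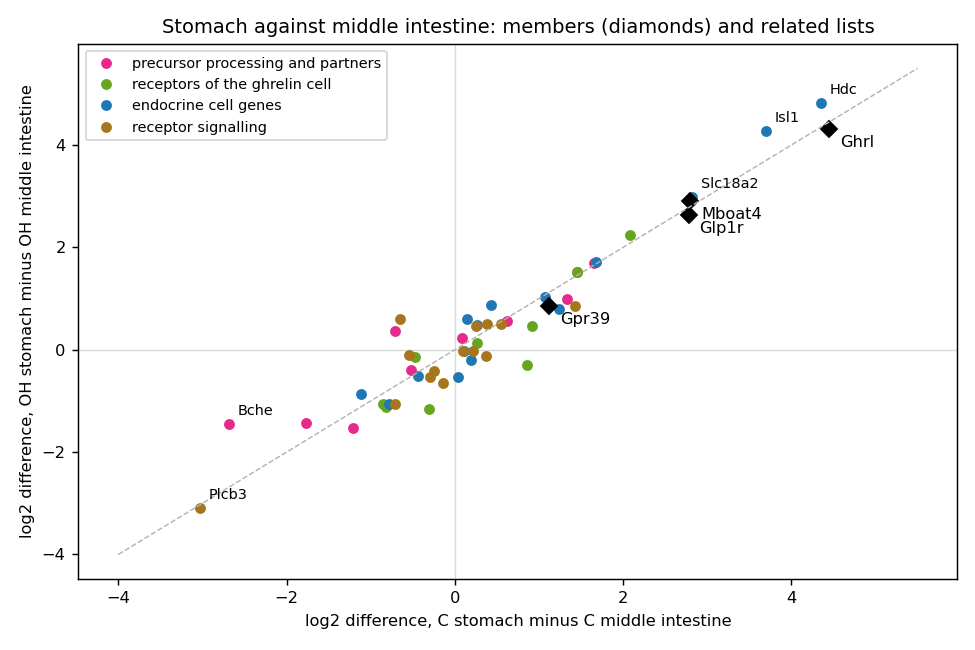
Each point is a gene, with its log2 difference between stomach and middle intestine in C on the horizontal axis and in OH on the vertical axis, diamonds for the members and circles coloured by list. The dashed line marks equal differences. Ghrl lies at 4.45 and 4.31, beside Hdc at 4.35 and 4.81.

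The probes whose log2 ratios lay nearest to those of each member over the 16 arrays were found by the root mean square difference among 15826 probes with a symbol. Nearest to Ghrl was Hdc, at 0.65, then Odf3b at 0.67, Ltc4s at 0.72 and both probes of Sult1c2a at 0.73 and 0.74, where the median over all probes was 2.50. No probe came within 0.5 of Ghrl. Nearest to Mboat4 were Foxa2 at 0.33, Enpp4 at 0.37, Cadps2 at 0.42, Rab27b at 0.43 and Ppy at 0.43.

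Nearest to Gpr39 were Lnx1 and Rap1gap2 at 0.25 each, Mid1ip1 at 0.25, Olr775 at 0.26 and Sh2d4a at 0.28. Nearest to Glp1r were Lrrc26 at 0.40, Mlph at 0.41, Adora1 at 0.42, Klf15 at 0.43 and Kctd14 at 0.51, of which the first 4 were the only probes within 0.5. These distances are a description and carry no test.

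Over the 4 groups, each tested member had the same arrangement of levels, with the split probe taken for Glp1r. C stomach and OH stomach were neighbours that did not differ beyond their spread, and so were C and OH middle intestine, while the step between the tissues exceeded the spread in both treatments. The sizes of that step on the log2 scale were 4.45 and 4.31 for Ghrl, 2.80 and 2.91 for Mboat4, 2.78 and 2.63 for the split probe of Glp1r and 1.12 and 0.85 for Gpr39, in C and OH.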

How the data were processed

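The authors deposited, for each of 16 Agilent SurePrint G3 rat arrays with 2 colours, the Feature Extraction output with raw and processed spot intensity in both channels, after background subtraction and Lowess normalization between the dyes. The file headers name rn4 as the annotation build and version 10.10.1.1 of the software, while the submitters' processing notes name 10.7.3.1. A table of log10 ratios, also deposited by the authors, equals the log ratio column of the scanner files on 15 arrays, with a largest difference of 0. The first OH stomach array was deposited with rounded intensities and differs by up to 0.005 (log10). No dye was swapped.

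Log2 ratios of processed Cy5 to Cy3 intensity were taken for spots that were neither controls nor outliers, and spots of a probe were averaged. Of 30367 probes, 9197 were left out because no group had them well above the Cy5 background on each of its 4 arrays, or because a group had under 3 values, and 43 of the 21170 kept lacked a value on some array. limma 3.58.1 in R 4.3.3 (lmFit, eBayes, 1 mean per group, no block) was fitted to all 16 arrays, with Benjamini-Hochberg adjustment over all probes kept and a threshold of 0.05. For the members and for Pam, exact two-sided permutation tests were added. limma replaced the study's ANOVA with Tukey's HSD because of the number of arrays, which limits the precision. Channels apart were fitted after the median of each array was subtracted. The folds of the contiguous Glp1r probe use Cy5 signals after Aquantile scaling. Dim arrays were set no lower than the lowest signal of the probes well above background on each. The fit was tested on simulated ratios.

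A gene stands for its brightest kept probe in Cy5. Named genes are all member probes and, from each list, up to 4 genes with the largest difference among those that passed or, where none passed, the 2 largest, of which the text gives at least 1, and the 5 nearest probes of each member. Pam was followed further after its values were seen. The members and lists were chosen with earlier results of these data known. Of 18864 RefSeq accessions in the design, 15600 were found in the RefSeq gene table, which was used for names only. The replicate numbers were not used as pairs, since the labels do not give rat or litter and same-numbered arrays did not all correlate. Alternatives covered background, scaling, Cy5 alone, the log10 table, filters, the arrays fitted, a replicate block, the study's tests, probes averaged and each array left out.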

Additional observations from a re-analysis of the deposited data

Results flagged for a closer look

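Within groups of 4 arrays, a marker list was singled out where its lowest or highest array stood apart from the rest by more of the group's range than Dixon's 95% critical value allows. The striated muscle list in C stomach did so with 0.864, because replicate 2 had a mean log2 ratio of -1.05 and the other arrays had 3.30 to 3.98; the Ghrl ratio of that array, 3.73, was the highest of C stomach. The pancreas list in OH middle intestine did so with 0.864, because replicate 4 had -1.40; the Ghrl ratio of that array was -1.19. Chance gives such a value in about 1 of 20 groups, so that 3 were to be expected among the 60 groups examined, and 2 were found. No member gene stood apart in this way.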

How the results depend on the processing

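The tissue differences of Ghrl, Mboat4, Gpr39 and Glp1r kept their direction and passed under each of the 28 alternatives run for each, with log2 differences from 4.00 to 5.28 for Ghrl, 1.59 to 3.26 for Mboat4, 0.47 to 1.21 for Gpr39 and 1.45 to 3.79 for Glp1r; the lowest values of the last 3 came with normexp and loess. No difference of these genes between OH and C, and no difference of responses, passed under any alternative run, and the signs of several changed. Glp1r stands here for its split probe or for both probes averaged. Its contiguous probe alone was not followed through the alternatives. With normexp and loess, Mboat4 and Gpr39 in stomach were 0.044 and 0.063, and the Glp1r responses differed by 0.28. With quantile scaling these were 0.089, 0.13 and 0.40, the Ghrl responses differed by 0.60, and Ghrl and Glp1r in stomach were 0.82 and 0.56. With array medians at 0, Glp1r in stomach was -0.014. In Cy5 alone, Mboat4 was 0.052 in stomach and 0.034 in the intestine, Ghrl -0.10 and Glp1r -0.025 in middle intestine, Pam -0.13 in stomach and -0.25 in the intestine, and the responses of Ghrl and Glp1r differed by 0.55 and 0.25. With both Glp1r probes averaged, the stomach value of Glp1r was -0.20, the intestinal one -0.31 and the difference of its responses 0.11; the contiguous probe is the cause there. Leaving out 1 array at a time gave, in stomach, -0.017 to 0.42 for Ghrl, -0.33 to 0.14 for Mboat4, -0.12 to 0.083 for Gpr39 and -0.082 to 0.10 for Glp1r, and in middle intestine -0.11 to 0.60 for Ghrl. The responses then differed by -0.44 to 0.27 for Ghrl and by -0.10 to 0.37 for Mboat4. For the other changes the cause was not tested. The ANOVA with Tukey's HSD also passed Pam in stomach.

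The deviations of arrays with the same replicate number correlated at -0.40 to 0.51 between treatments, at 0.058 to 0.25 between the C tissues, where all 4 were positive, and at -0.12 to 0.32 between the OH tissues. Not every array correlated best with its own number, and whether numbers mark a rat is not known. A replicate block cannot move the differences of this balanced design, so that Ghrl stayed at 0.16 (stomach) and 0.30 (middle intestine), while the SE of both went from 0.39 to 0.43. The block changed no call of a member or of Pam, and the probes that passed in middle intestine went from 78 to 40. That count was 121 with quantile scaling, 256 in Cy5 alone (38 higher and 218 lower, against 71 and 7 in the ratios), 1378 without the filter, 936 by Tukey's HSD, 19 with probes averaged, 1 with only the arrays of the groups compared, and 13 to 88 without 1 array. In stomach, where 0 passed, the counts were 3 with medians at 0, 11 in Cy5 alone, 2 with the log10 table, 639 without the filter, 709 by Tukey's HSD, 1 with probes averaged, and 0 to 311 without 1 array. Precision is limited by 4 arrays a group, and for Ghsr and the intestinal Mboat4 and Glp1r signals by background.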
